A study of Mus musculus with 2 samples.

Results

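The neutrophil granule protein genes described here are 10 genes that encode the cargo of the storage granules of neutrophils and of their precursors. They were taken from the deposited expression table by gene name, and all 10 were found among its 34745 genes. They comprised the primary (azurophil) granule genes Mpo, Elane, Prtn3 and Ctsg, the secondary (specific) granule genes Ltf, Lcn2, Camp, Ngp and Chil3, and Lyz2, whose product is stored in granules of every class. RNA was sequenced from monocytic myeloid-derived suppressor cells (M-MDSCs), immature Ly6C-high myeloid cells that restrain T cells, obtained from mouse bone marrow after 7 days of culture and flow cytometric sorting. The CHBP- M-MDSC group (labelled C57BL/6) was cultured with GM-CSF, and the CHBP+ M-MDSC group (labelled C57BL/7) with GM-CSF and CHBP, a cyclic helix B peptide derived from erythropoietin. The methods give C57BL/6 mice of 6 to 8 weeks, 50 ng/ml GM-CSF for both groups and 20 μM CHBP, whereas the dose series in the results of the study is in nM. Each group had 1 library, so no difference below has a replicate check, and an effect of CHBP cannot be told apart from one of the labelled strain or of library making. In RNA from a cell population, fewer cells of a type and less RNA per cell cannot be told apart either.

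Granules are filled in an order. Primary granules are loaded in promyelocytes with myeloperoxidase and serine proteases, secondary granules later, in myelocytes, with iron-binding and antimicrobial proteins, and tertiary granules last, with gelatinase. Monocytes share part of this programme, since they derive from the same granulocyte-monocyte progenitors and keep lysozyme and some myeloperoxidase, whereas lactoferrin and cathelicidin are typical of maturing neutrophils. The transcription factors PU.1 and C/EBPα act early in this programme, and C/EBPε and GFI1 act during granulocyte maturation.

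The upstream sequences of the 4 primary granule genes are shown because these were lower together in the CHBP+ library. Each line gives the 250 bases before the RefSeq start of the gene on GRCm38.p6, from 5′ to 3′ on the strand of the gene. The regions are chr11:87793534-87793783 (plus strand) for Mpo, chr10:79886062-79886311 (plus strand) for Elane, chr10:79879417-79879666 (plus strand) for Prtn3 and chr14:56102575-56102824 (minus strand) for Ctsg. The Prtn3 region lies inside the deposited entry of Prtn3 (79874476 to 79883174). Most of the Mpo region lies inside the deposited entry of Mpo, which starts at 87793581. Capitals mark matches, on either strand, to GAGGAA (PU.1), TTGCNNAA (C/EBP), TGTGGT (RUNX) and TAACNG (MYB), where N is any base.
Mpo: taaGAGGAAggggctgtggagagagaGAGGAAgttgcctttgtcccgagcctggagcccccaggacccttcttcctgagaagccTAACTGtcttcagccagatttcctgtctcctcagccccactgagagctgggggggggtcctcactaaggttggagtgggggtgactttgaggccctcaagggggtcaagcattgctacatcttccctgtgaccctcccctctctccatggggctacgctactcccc
Elane: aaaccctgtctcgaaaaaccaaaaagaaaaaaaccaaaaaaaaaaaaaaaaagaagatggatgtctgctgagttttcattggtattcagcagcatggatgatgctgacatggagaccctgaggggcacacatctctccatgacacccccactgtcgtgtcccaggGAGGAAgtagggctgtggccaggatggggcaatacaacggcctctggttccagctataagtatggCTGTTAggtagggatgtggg
Prtn3: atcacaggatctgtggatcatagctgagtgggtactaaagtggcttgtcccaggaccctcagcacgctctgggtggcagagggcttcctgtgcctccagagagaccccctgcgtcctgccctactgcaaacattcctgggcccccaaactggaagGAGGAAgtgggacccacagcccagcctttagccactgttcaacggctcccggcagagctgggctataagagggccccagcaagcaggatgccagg
Ctsg: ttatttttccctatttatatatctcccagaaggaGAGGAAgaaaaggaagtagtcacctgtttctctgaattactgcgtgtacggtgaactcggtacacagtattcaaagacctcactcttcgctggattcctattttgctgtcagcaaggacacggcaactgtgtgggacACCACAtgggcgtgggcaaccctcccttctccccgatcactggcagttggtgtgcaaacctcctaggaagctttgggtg
GAGGAA was present on the gene strand in all 4 sequences, 85 bases before the start of Elane, 95 before that of Prtn3, 216 before that of Ctsg, and 247 and 224 before that of Mpo. Over the whole promoter window of 300 bases, which adds the 50 bases after the start, 6 of the 10 genes held GAGGAA on either strand (the primary granule genes, Ltf and Lcn2), against 28.3% of 32851 RefSeq promoters of that length. TTGCNNAA was present in 3 of the 10 (Ltf, Lcn2 and Ngp) against 10.8% of all promoters, TGTGGT in 3 (Ctsg, Ltf and Lyz2) against 16.8%, and TAACNG in 2 (Mpo and Elane) against 23.3%. These matches describe the letters in the windows only.

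The CHBP- library held 16484504 counted reads and the CHBP+ library 16280466. The level of 3 reads, up to which a gene with a count of 0 may have been missed, was 0.182 and 0.184 CPM (counts scaled to the library total). The sorting markers were checked in both libraries. The neutrophil surface marker Ly6g had 46 reads in the CHBP- library and 44 in the CHBP+ library (2.19 and 2.12 FPKM, counts per unit of gene length and of library size). The 2 entries of Itgam, which encodes CD11b, had 157 and 99.99 FPKM in the CHBP- library and 232 and 153 FPKM in the CHBP+ library. Ly6c2, which encodes a Ly6C antigen, had 56.9 FPKM in the CHBP- library and 34.0 FPKM in the CHBP+ library. The log2 ratio of all genes also followed gene length, and values relative to genes of like length are given below for the 10 genes and for some of the related lists.

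In these sorted cells, the 10 genes spanned levels from under 2 FPKM to nearly the top of the transcriptome. Lyz2 held rank 3 of all genes by FPKM in both libraries, and Chil3, Ctsg and Lcn2 were above 85 FPKM. The neutrophil genes Camp and Ltf were under 2 FPKM, with 22 and 17 reads for Camp and 141 and 147 reads for Ltf in the CHBP- and CHBP+ libraries. The granule genes took 1.47% of all counted reads in the CHBP- library (95% Clopper-Pearson interval 1.46% to 1.47%) and 1.19% in the CHBP+ library (1.18% to 1.19%). Lyz2 alone was 84.2% and 83.4% of their reads. Reads amplified by PCR are not independent molecules, so this interval and those below cover counting error only.

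**Figure D1:**
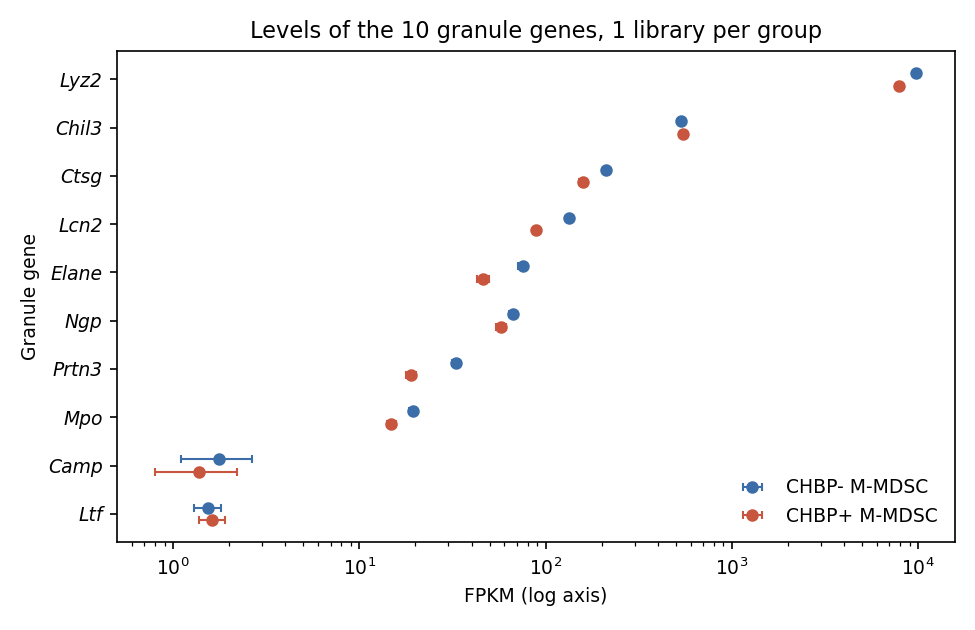
FPKM on a log axis (x) of the 10 granule genes (y) in the CHBP- M-MDSC library (blue) and the CHBP+ M-MDSC library (red). Points are the deposited values of 1 library each and bars are exact 95% Poisson intervals of the reads. Lyz2 is the highest gene, Camp and Ltf lie under 2 FPKM in both libraries, and the red point is to the left for every gene but Chil3 and Ltf.

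By FPKM, the order of levels in the CHBP- library was Lyz2, Chil3, Ctsg, Lcn2, Elane, Ngp, Prtn3, Mpo, Camp and Ltf. In the CHBP+ library, Ngp stood above Elane and Ltf above Camp, with the other places as before. The Elane interval (70.9 to 79.7 FPKM) lay above that of Ngp (63.2 to 70.4) in the CHBP- library, and in the CHBP+ library it lay below (43.0 to 49.9 against 54.3 to 61.0). The intervals of Camp (1.10 to 2.67 FPKM) and Ltf (1.30 to 1.82) overlapped in the CHBP- library, as they did in the CHBP+ library (0.802 to 2.21 and 1.37 to 1.91), so the order of this pair was not detectable at this depth. No other neighbours in the order had overlapping intervals. These intervals cover counting error only, and an order of genes by FPKM also depends on the gene length used. By CPM, which uses no length, Ngp was above Elane in the CHBP- library (81.6 against 69.2) and in the CHBP+ library (70.4 against 42.6). Lcn2 was above Ctsg by CPM, with 649 against 210 in the CHBP- library and 431 against 158 in the CHBP+ library.

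Of the 10 genes, 8 were lower and 2 were higher in the CHBP+ than in the CHBP- library, where 53.7% of all genes of at least 1 FPKM in either library were lower. The log2 ratio, the difference CHBP+ minus CHBP- in log2(FPKM + 1), had a median of -0.34 over the 10 genes, against -0.03 over the 10948 genes with at least 1 FPKM in either library. By the 1.5-fold threshold that the methods name, 2 of the 10 genes, Elane and Prtn3, were called lower, where 2.89% of the 10948 genes were. With the median log2 ratio of genes of like length subtracted, only Prtn3 was, where 1.39% of the 10948 genes were. None of the 10 was at least 1.5-fold higher, where 3.42% of the 10948 genes were. The added 1 FPKM makes the log2 ratio understate the change of low genes, so ratios of reads scaled to the library totals are given beside it for the 10 genes.

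**Figure D2:**
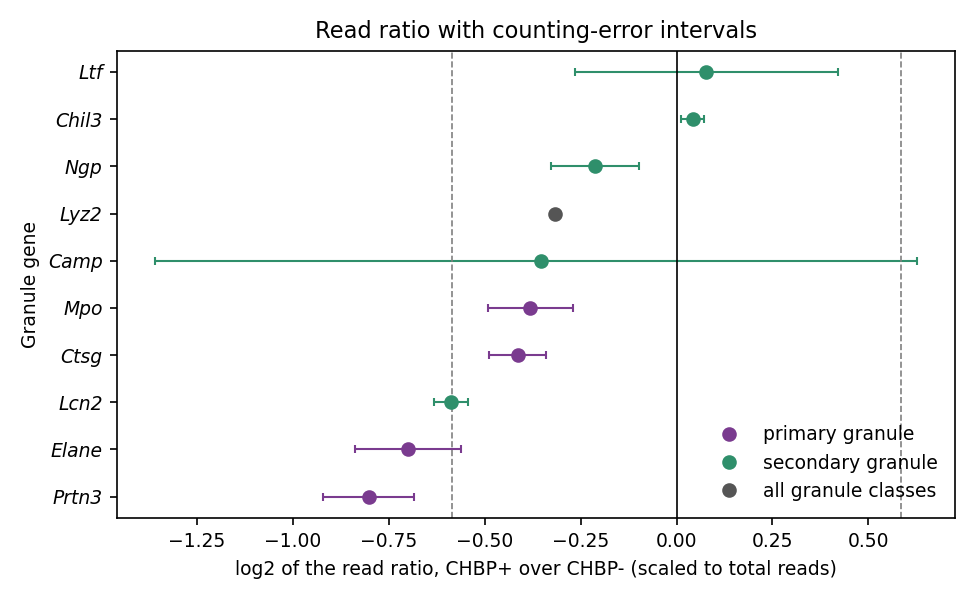
The log2 of the ratio of reads scaled to the library totals, CHBP+ over CHBP- (x), for the 10 granule genes (y), 1 library per group. Bars are 95% Clopper-Pearson intervals for counting error, colours give the granule class and dashed lines mark 1.5-fold. The 4 primary granule genes and Lcn2 lie between -0.80 and -0.38, and the intervals of Camp and Ltf span 0.

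All 4 primary granule genes were lower in the CHBP+ library, with a median log2 ratio of -0.55, and together their share of counted reads was 0.0470% in the CHBP- library and 0.0328% in the CHBP+ library, a ratio of 0.697 (95% interval 0.673 to 0.722). Prtn3, which encodes proteinase 3, a serine protease that cleaves matrix proteins and cytokines, had 1608 reads (33.0 FPKM) in the CHBP- library and 911 reads (18.9 FPKM) in the CHBP+ library. Its log2 ratio was -0.77 and its read ratio 0.574 (95% interval 0.528 to 0.623). Elane encodes neutrophil elastase, the protease that degrades elastin and bacterial outer membrane proteins. It had 1141 reads (75.2 FPKM) in the CHBP- library and 694 reads (46.3 FPKM) in the CHBP+ library, which gave a log2 ratio of -0.69 and a read ratio of 0.616 (0.560 to 0.677).
Ctsg, which encodes cathepsin G, a chymotrypsin-like protease of the same granules, was the highest of the 4. It had 3468 reads (209.96 FPKM) in the CHBP- library and 2571 reads (158 FPKM) in the CHBP+ library, which gave a log2 ratio of -0.41 and a read ratio of 0.751 (0.713 to 0.790). Mpo encodes myeloperoxidase, which makes hypochlorous acid from hydrogen peroxide and chloride. It had 1535 reads (19.3 FPKM) in the CHBP- library and 1164 reads (14.8 FPKM) in the CHBP+ library, which gave a log2 ratio of -0.36 and a read ratio of 0.768 (0.711 to 0.829). For each of the 4 genes the CHBP+ library was the low one by more than counting error, and among them only the interval of Prtn3 lay wholly beyond 1.5-fold.

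Prtn3 (ENSMUSG00000057729, chromosome 10 from 79874476 to 79883174) and Elane (ENSMUSG00000020125, chromosome 10 from 79886312 to 79888216) are neighbours, with 3137 bases between them in the deposited coordinates, which lie on GRCm38. Cfd, the serine protease complement factor D, lies 2636 bases beyond Elane and had 2 and 0 reads, at or under the level of 3 reads. Other genes within 50 kb of Elane were lower as well. Ptbp1 had 2912 and 2140 reads in the CHBP- and CHBP+ libraries, R3hdm4 had 1352 and 906, and Med16 had 345 and 280, whereas Arid3a had 1511 and 1827. The entry of Prtn3 shares 159 bases with that of Lppr3, which had 245 and 134 reads, so reads in the shared bases are uncertain. Summed over both entries, the reads were 1853 and 1045, a ratio of 0.571 (0.529 to 0.616). Mpo (ENSMUSG00000009350, chromosome 11 from 87793581 to 87804413) overlaps only Gm11505, which had 0 and 2 reads. Ctsg (ENSMUSG00000040314, chromosome 14 from 56099881 to 56102574) overlaps no listed gene.

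The 5 secondary granule genes differed among themselves in level and in ratio, with a median log2 ratio of -0.21. None was past 1.5-fold on the log2(FPKM + 1) scale. Lcn2 (ENSMUSG00000026822, chromosome 2 from 32384633 to 32388252) encodes lipocalin 2, which binds bacterial siderophores and so withholds iron. It had 10691 reads (133 FPKM) in the CHBP- library and 7024 reads (88.6 FPKM) in the CHBP+ library, which gave a log2 ratio of -0.58, just inside the 1.5-fold limit. Its read ratio, which holds no added FPKM, was 0.665 (0.645 to 0.686), just beyond 1.5-fold, with the limit inside the interval. Ngp (ENSMUSG00000032484, chromosome 9 from 110419747 to 110423012) encodes neutrophilic granule protein, a relative of the cathelicidins. It had 1345 reads (66.8 FPKM) in the CHBP- library and 1146 reads (57.6 FPKM) in the CHBP+ library, which gave a log2 ratio of -0.21 and a read ratio of 0.863 (0.797 to 0.934).
Chil3 (ENSMUSG00000040809, chromosome 3 from 106147554 to 106167564) encodes the chitinase-like protein Ym1, which monocytes and alternatively activated macrophages make as well as neutrophils. It had 18135 reads (530.4 FPKM) in the CHBP- library and 18437 reads (546 FPKM) in the CHBP+ library. Its log2 ratio was 0.04 and its read ratio 1.03 (1.01 to 1.05). Among the 10 genes, Chil3 and Ltf were those not lower in the CHBP+ library.
Ltf (ENSMUSG00000032496, chromosome 9 from 111019271 to 111042767) encodes lactoferrin, the iron-binding protein of secondary granules. It had 141 reads (1.54 FPKM) in the CHBP- library and 147 reads (1.63 FPKM) in the CHBP+ library, a read ratio of 1.06 (0.832 to 1.34). Camp (ENSMUSG00000038357, chromosome 9 from 109847379 to 109849617) encodes the cathelicidin antimicrobial peptide CRAMP. It had 22 reads (1.76 FPKM) in the CHBP- library and 17 reads (1.38 FPKM) in the CHBP+ library, a read ratio of 0.782 (0.390 to 1.54). For both genes a difference in either direction was not detectable at this depth, and the interval of Camp reached past 1.5-fold each way.

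Lyz2 (ENSMUSG00000069516, chromosome 10 from 117277334 to 117282274) encodes lysozyme M, which cleaves bacterial peptidoglycan and is made by monocytes, macrophages and neutrophils alike. It had 203606 reads (9756 FPKM) in the CHBP- library and 161382 reads (7829.9 FPKM) in the CHBP+ library. The CHBP+ library was the low one, with a log2 ratio of -0.32 and a read ratio of 0.803 (0.797 to 0.808). The lysozyme P gene Lyz1 lies beside it and had 20 and 14 reads. In the GENCODE M1 transcripts the coding sequences of Lyz2 and Lyz1 were 95.1% identical, and 5.97% of the windows of 75 bases (the read length) in the Lyz2 transcript were present unchanged in Lyz1. Reads from such windows cannot be assigned to either gene. The same held for Chil3 and its paralog Chil4 (95.3% identity, 8.53% of windows shared), and Chil4 had 3 and 8 reads. Elane and Prtn3 (66.2% identity), Ctsg and Elane (63.9%), Mpo and Epx (71.5%), Ngp and Camp (56.2%) and Ltf and Trf (65.8%) shared no such window.

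Genes of greater length tended to be higher in the CHBP+ library. The gene length behind the FPKM and the log2 ratio had a Spearman's rho of 0.478 across the 10948 genes, which are not independent of each other. The median log2 ratio of the 547 genes of 861 to 1391 bases, the range of Elane, Ctsg, Ngp and Lyz2, was -0.31, and 8.04% of them were at least 1.5-fold lower. The log2 ratio of Lyz2 differed from that median by -0.01, that of Ctsg by -0.10, that of Ngp by 0.10 and that of Elane by -0.38. Prtn3 (2960 bases) was -0.63 from the median of its length range, which was -0.14. Lcn2 (4867 bases) and Mpo (4815 bases) shared a range with a median of -0.03 and were -0.55 and -0.33 from it. Chil3 (2074 bases) was 0.23 above its median of -0.18. Camp was 0.06 above its median of -0.28, and Ltf was 0.06 above its median of -0.01. By this length, Prtn3, Lcn2, Elane and Mpo were thus the low ones, and only Prtn3 was still past 1.5-fold. Among the 10 genes, 4 lay above the median of their length range. This length, recovered from the FPKM, need not be that of a transcript. For Lcn2, 4867 bases exceed its deposited span (32384633 to 32388252). For Prtn3, the length of 2960 bases stands against a coding sequence of 765 bases. Its deposited entry starts at 79874476, before its RefSeq upstream region, which starts at 79879417. Whether Prtn3, Lcn2 and Mpo would stay low against genes of like transcript length was not tested. Nor was it tested whether Prtn3 would stay past 1.5-fold. The part of gene length in the lower values was not tested.

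**Figure D3:**
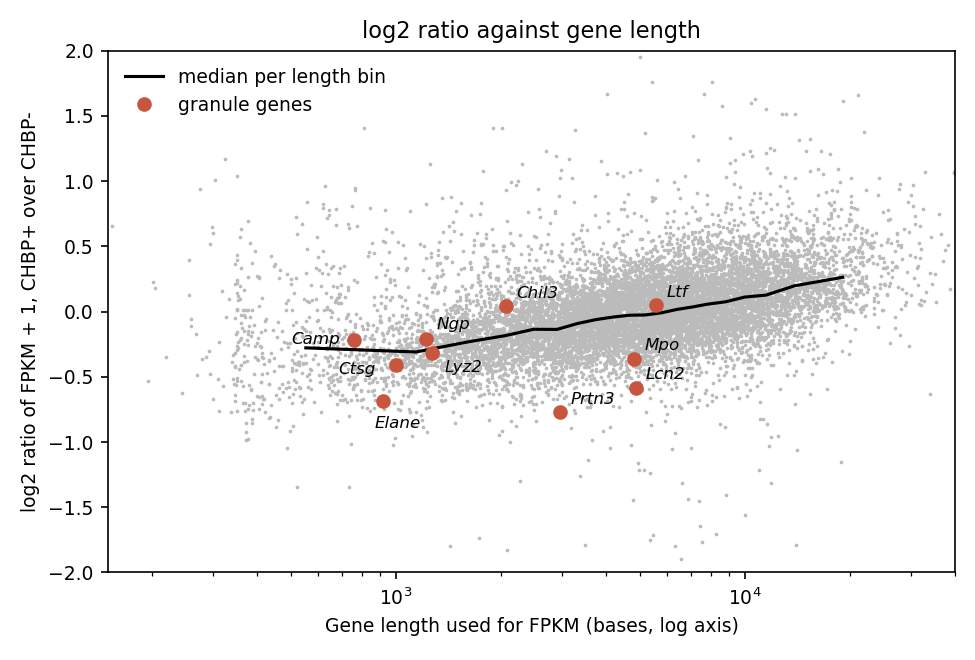
The log2 ratio of FPKM + 1, CHBP+ over CHBP- (y), against the gene length used for the FPKM on a log axis (x). Grey points are the genes with at least 1 FPKM in either library (47 lie outside the axes), the black line joins the medians of 20 bins of gene length and red points are the granule genes. Lyz2, Ctsg, Ngp and Camp lie near the line, and Prtn3, Lcn2, Elane and Mpo lie below it.

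Other granule genes, listed by granule class, did not share one direction. Of 4 other primary granule genes, 3 reached 1 FPKM and had log2 ratios from -0.13 to -0.03. Cd63, a tetraspanin of the granule membrane, had 589 and 543 FPKM in the CHBP- and CHBP+ libraries, and Bpi, which encodes an endotoxin-binding protein, had no read in either library. Of 9 other secondary granule genes, 8 reached 1 FPKM, 5 were higher and 3 were lower, where 53.7% of all genes were lower. None was past 1.5-fold on the log2(FPKM + 1) scale, where 3.42% of all genes were higher and 2.89% lower by that limit. Mmp8, neutrophil collagenase, had 1290.1 FPKM (52166 reads) in the CHBP- library and 1546 FPKM (61738 reads) in the CHBP+ library, which gave a log2 ratio of 0.26. Its level was thus above that of every granule gene described here but Lyz2. Pglyrp1, a peptidoglycan recognition protein, had 17.8 and 11.5 FPKM (log2 ratio -0.58), and its read ratio of 0.649 (0.577 to 0.728), which holds no added FPKM, was beyond 1.5-fold. Hp, which encodes haptoglobin, had 165 and 122 FPKM (log2 ratio -0.43).
Cybb and Cyba encode the membrane subunits of the phagocyte oxidase, and their values went in opposite directions. Cybb had 102 and 141 FPKM in the CHBP- and CHBP+ libraries (log2 ratio 0.46), and Cyba had 632 and 446 FPKM (log2 ratio -0.50). Of 5 tertiary granule genes, 4 reached 1 FPKM, with 2 higher and 2 lower, where 53.7% of all genes were lower. None was past 1.5-fold, where 3.42% of all genes were higher and 2.89% lower by that limit. Mmp9, the gelatinase that defines these granules, had 110.3 and 99.3 FPKM (log2 ratio -0.15), and Adam8, a membrane metalloprotease, had 118 and 145 FPKM (log2 ratio 0.30).

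**Figure D4:**
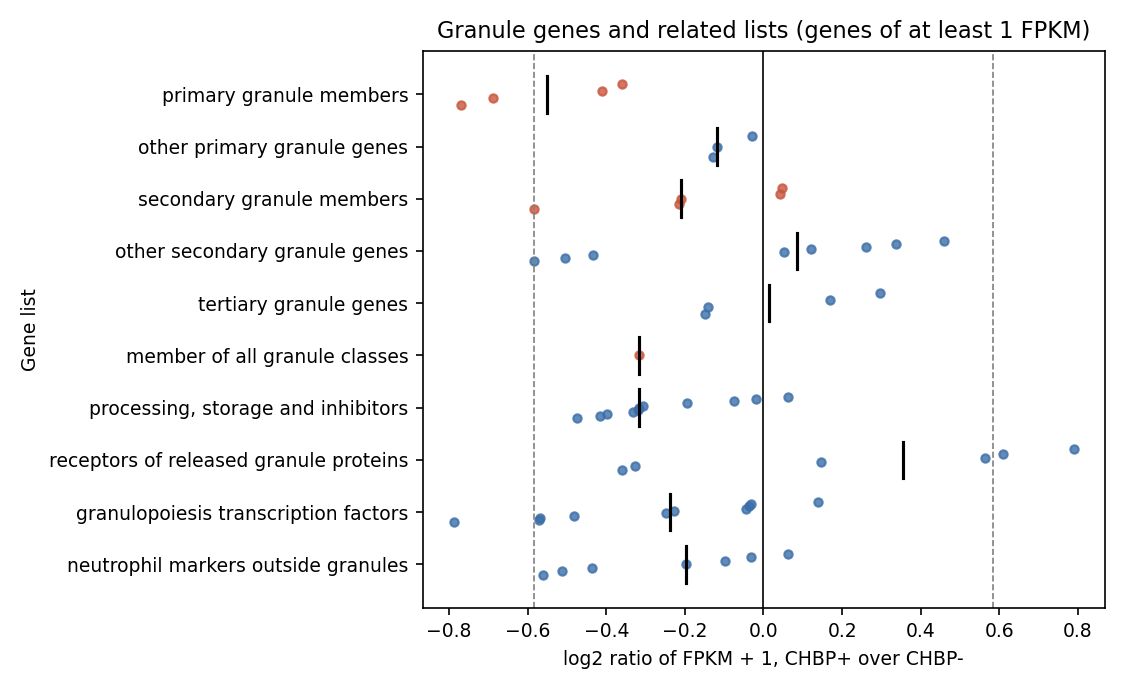
The log2 ratio of FPKM + 1, CHBP+ over CHBP- (x), for the 10 granule genes by class (red) and for related gene lists (blue), genes of at least 1 FPKM in either library, 1 library per group. Short black lines are list medians and dashed lines mark 1.5-fold. The primary granule genes have the lowest median (-0.55), and the receptor list the highest (0.36).

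Of 13 listed genes that process, store or inhibit granule proteins, 11 reached 1 FPKM and 10 were below 0 (53.7% of all genes were). None was past 1.5-fold, where 3.42% of all genes were higher and 2.89% lower by that limit. The median log2 ratio of the list was -0.32. The read ratio lay below 1 by its whole interval in 7 of the 11. With the median of genes of like length subtracted, the median of the list was -0.09, and 3 of the 11 were above 0. Ctsc, the protease that activates elastase, proteinase 3 and cathepsin G by removing their propeptide, had 63.2 and 66.1 FPKM in the CHBP- and CHBP+ libraries (log2 ratio 0.06). Srgn encodes serglycin, the proteoglycan on which granule proteases are packed, and had 531 and 426 FPKM (log2 ratio -0.32). Slpi, an inhibitor of elastase and cathepsin G, had 454 and 340.0 FPKM (log2 ratio -0.41), and Serpinb1a, an intracellular inhibitor of the same proteases, had 73.1 and 63.8 FPKM (log2 ratio -0.19).

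Receptors that bind released granule proteins gave 6 entries of at least 1 FPKM. Among them, 2 were at least 1.5-fold higher, where 3.42% of all genes were. None was at least 1.5-fold lower, where 2.89% of all genes were. Lrp1, an endocytic receptor for lactoferrin, had 4444 reads (12.9 FPKM) in the CHBP- library and 7833 reads (23.0 FPKM) in the CHBP+ library, which gave a log2 ratio of 0.79, and 1 of the 2 entries of Itgam was the other (log2 ratio 0.61). The other entry of Itgam, which overlaps that one, had a log2 ratio of 0.56. Lrp1 has a deposited length of 20915 bases, and the median of its length range was 0.26. Fpr2, a formyl peptide receptor that also binds cathelicidin, had 78.9 and 61.3 FPKM (log2 ratio -0.36). The lipocalin 2 receptor Slc22a17 had 24 and 10 reads and stayed under 1 FPKM.

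Of 10 transcription factors of granulocyte and monocyte development, all of which reached 1 FPKM, 9 were lower in the CHBP+ library, as 53.7% of all genes were. At least 1.5-fold lower was 1 factor, where 2.89% of all genes were. The intervals of the read ratio lay wholly below 1 for 6 of the 9 and spanned 1 for Myb, Irf8 and Klf4. With the median of genes of like length subtracted, 9 were below 0, with a median of -0.16. That factor was Gfi1, a repressor required for neutrophil differentiation, which had 659 reads (6.67 FPKM) in the CHBP- library and 336 reads (3.44 FPKM) in the CHBP+ library. Its log2 ratio was -0.79, with a read ratio of 0.516 (0.451 to 0.590), and the median of its length range was -0.01. Cebpe, which encodes C/EBPε, had 1099 reads (53.9 FPKM) and 726 reads (36.0 FPKM), a log2 ratio of -0.57 in a length range with a median of -0.31. Spi1, which encodes PU.1, had 85.7 and 72.0 FPKM (log2 ratio -0.25), Cebpa had 15.4 and 13.0 FPKM (log2 ratio -0.23), and Irf8, a factor of the monocyte lineage, had 12.9 and 12.6 FPKM (log2 ratio -0.04).

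Markers of other cells that carry these granule transcripts were present in both libraries. Of 7 neutrophil markers outside granules, 6 were lower in the CHBP+ library, as 53.7% of all genes were. None was past 1.5-fold, where 3.42% of all genes were higher and 2.89% lower by that limit. The markers summed to 1939 FPKM in the CHBP- library and 1415 FPKM in the CHBP+ library, with no marker at 0. S100a8 and S100a9, calcium-binding proteins shared by neutrophils and monocytes, made up most of this sum, with 576 and 391 FPKM for S100a8 and 1269 and 937 FPKM for S100a9. The granulocyte colony-stimulating factor receptor gene Csf3r had 53.6 and 50.1 FPKM, and Cxcr2 had 21.6 and 22.6 FPKM. The read ratio lay below 1 by its whole interval for 4 of the 7, and the intervals of Ly6g, Retnlg and Cxcr2 spanned 1. With the median of genes of like length subtracted, 4 of the 7 were below 0 and Ly6g, Retnlg and Cxcr2 were above. Of 5 progenitor markers, 3 were lower, where 53.7% of all genes were. None was past 1.5-fold, where 3.42% of all genes were higher and 2.89% lower by that limit. The sums of the progenitor markers were 56.3 and 48.8 FPKM, with none at 0. Among them, Ms4a3, a marker of granulocyte-monocyte progenitors, had 36.6 and 28.2 FPKM (log2 ratio -0.36), and Cd34 had 8.19 and 8.05 FPKM (log2 ratio -0.02). The study sorted with antibodies to CD11b, Ly6G and Ly6C and defines M-MDSCs as Ly6G-. The purity it states for the isolated MDSCs is not complete, and Ly6g had 46 and 44 reads in the CHBP- and CHBP+ libraries. The part of neutrophils or progenitors in the lower granule transcripts was not tested.

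The sums of the other marker lists were 460 and 490 FPKM for 7 macrophage markers, 796 and 675 FPKM for 6 dendritic cell markers, 944 and 370 FPKM for 4 erythroid markers (236 and 158 FPKM without Hbb-bs), 28.3 and 19.4 FPKM for 8 lymphocyte markers, and 640.1 and 730.3 FPKM for the 7 entries of the monocyte and sorting markers, in the CHBP- and CHBP+ libraries. Itgam is counted 2 times in the last sum, through overlapping entries with log2 ratios of 0.56 and 0.61. Among these 7 entries, 4 were higher and 3 were lower, where 53.7% of all genes were lower. The lower ones were Ly6c2 (log2 ratio -0.73), Ly6c1 (-0.27) and Cd14 (-0.21). Ncr1, on the lymphocyte list, had no read in either library. The beta-globin gene Hbb-bs had 708 and 212 FPKM, with a log2 ratio of -1.73. It was the 1 erythroid marker at least 1.5-fold lower on the log2(FPKM + 1) scale, where 2.89% of all genes were.

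By level in both libraries together, the gene nearest to Mpo was Rilpl2 (19.4 and 14.9 FPKM in the CHBP- and CHBP+ libraries), that nearest to Elane was Rpl37 (70.9 and 45.3 FPKM) and that nearest to Prtn3 was Cox14 (33.2 and 20.2 FPKM). The measure was the Euclidean distance of log2(FPKM + 1) over the 2 libraries, which was 0.00256, 0.0897 and 0.0930 for these pairs. For Lcn2 the nearest gene was S100a6 (distance 0.0330), for Ctsg it was Chmp2a (0.0377), and for Lyz2 it was the mitochondrial gene mt-Co3 (0.323), the farthest of the 10 nearest genes. With 2 libraries, such nearness says only that both levels were close.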

How the data were processed

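Per the labels, reads were filtered with Seqtk. The methods of the study describe single-end 75-base reads aligned to mm9 with TopHat2 and counted with HT-seq, whereas the submitters' processing notes name HISAT2 2.0.4, Cufflinks 2.1.1, Cuffdiff and mm10 (GRCm38). The deposited coordinates of all 10 genes overlap their RefSeq genes on GRCm38. Handling of strand and multi-mapped reads is not given in the sources used here. The counts deposited by the authors are raw reads per gene. The deposited FPKM are these counts scaled by the authors to gene length and total counts, and gene length was recovered from them.

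The members and all gene lists were chosen with earlier results of these data known. The genes named are the 10 members, listed genes with at least 100 reads (others only as low or absent), the gene nearest each member in level, and genes within 50 kb of a member. With 1 library per group no test between the groups was run. Intervals are 95% Clopper-Pearson (ratios, shares) or exact Poisson (FPKM) intervals of the reads. Interval and fold calls were checked on simulated counts. Promoters came from RefSeq (GRCm38.p6), where all 10 members matched by symbol. Coding sequences were aligned globally. Python 3.11.15, numpy 2.4.6, pandas 2.3.3, scipy 1.17.1, Biopython 1.88, matplotlib 3.10.9 and edgeR 4.0.16 (trimmed mean of M values only) in R 4.3.3 were used.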

Additional observations from a re-analysis of the deposited data

How the results depend on the processing

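Prtn3 stayed at least 1.5-fold lower under every alternative run except the fold threshold of 2, at which 0 of the 10 genes were lower. With the median log2 ratio of genes of like length subtracted, 1 gene (Prtn3) was at least 1.5-fold lower, where 1.39% of all genes were, the median log2 ratio of the 10 genes was -0.055, 6 of them were below 0, and 6 left their counting interval. With a pseudocount of 0.1 FPKM, or with CPM, Lcn2 also passed 1.5-fold, which made 3 genes, where 5.22% and 3.61% of all genes were lower by that limit. No gene was at least 1.5-fold higher under any alternative. The summed share of reads was -0.278 percentage points apart (CHBP+ minus CHBP-), -0.254 with the median log2 ratio of all genes set to 0, -0.266 with the trimmed mean of M values and -0.0338 with Lyz2 left out, an alternative chosen after seeing the data. With at least 5 FPKM required, 8 genes were left, with a median log2 ratio of -0.386 against -0.339 in the main run. Of these, 2 were at least 1.5-fold lower, where 3.11% of all genes were. Without a filter and with median-of-ratios size factors, the results stayed within these limits. No paired analysis was possible because each group has 1 library, and no replicate could be left out. Depth limits Camp and Ltf most.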

Other observations

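Transcripts of granule proteins of other lineages were found in the same libraries. Among basophil and mast cell genes, Mcpt8, a granule protease of basophils and a paralog of Ctsg that lies near it on chromosome 14, had 650 reads (46.1 FPKM) in the CHBP- library and 416 reads (29.9 FPKM) in the CHBP+ library. Its log2 ratio was -0.61, with a read ratio of 0.648 (0.572 to 0.734), and the median log2 ratio of genes of like length was -0.28. Prss34, another basophil protease, had 83.4 and 57.2 FPKM (log2 ratio -0.54), and the mast cell carboxypeptidase Cpa3 had 141 and 130 FPKM (log2 ratio -0.13). Of 7 mast cell and basophil markers, 6 reached 1 FPKM and 5 were lower, as 53.7% of all genes were. At least 1.5-fold lower was 1 of them, where 2.89% of all genes were. With the median of genes of like length subtracted, 3 of the 6 were below 0. Ms4a2, a chain of the IgE receptor, was at least 1.5-fold higher, as 3.42% of all genes were, with 182 and 446 reads (log2 ratio 1.04). Among eosinophil genes, the granule major basic protein gene Prg2 had 107 and 77.8 FPKM (log2 ratio -0.46), and the peroxidase gene Epx, the paralog of Mpo, had 3.28 and 2.89 FPKM (log2 ratio -0.14). These markers are given as values, and their cells of origin were not tested.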
